A study of Homo sapiens with 6 samples.

Results

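Deoxynucleotide supply enzymes make, recycle, clean and destroy the deoxynucleoside triphosphates from which DNA is copied. The 9 members are RRM1, RRM2, RRM2B, TYMS, TK1, DCK, DUT, DCTPP1 and SAMHD1, of 67140 genes in the table, and all 9 were among the 20786 genes that passed the low-count filter. They were listed by function, but the set was chosen by the result of this same comparison, in which RRM2 was lower while replication genes were higher. The values of the 9 genes between the groups are therefore given as a description, with no test. The samples were 3 control libraries, without SIRT4 overexpression, and 3 libraries with SIRT4 overexpression, labelled as the pancreatic cancer line CAPAN-2. SIRT4 is a mitochondrial member of the sirtuin family. The vector, the duration and whether the 3 replicates were separate cultures are not stated in the labels. The p-values below therefore weigh the difference between groups against the variation among these libraries within a group, and that variation may be technical.

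Totals ran from 50945991 to 65156041 estimated count units per library. SIRT4 itself had 144, 101 and 106 units in control and 215, 144 and 208 in SIRT4 libraries (log2 fold change 0.63, SE 0.21, edgeR adjusted p = 0.0752, 0.0385 to 0.200 over 14 alternatives). The overexpressed gene thus lay higher on average but did not pass the threshold, though it did by the DESeq2 Wald test (0.0385). Of the ductal epithelial markers of the labelled line, KRT8, KRT18 and KRT19 averaged 863, 393 and 683 CPM (counts scaled to library size) in control libraries and were 1.26, 1.01 and 0.88 higher on the log2 scale in SIRT4 libraries, while SOX9 fell from 388 to 275 CPM (log2 fold change -0.50, edgeR adjusted p = 0.00127). EPCAM averaged 43.1 CPM in the controls and 37.7 CPM with SIRT4 and did not pass. KRT7 was low at 7.11 CPM in the controls and CEACAM6 was near 0 at 0.153 CPM, both markers that ductal lines usually express; the identity of the line was not tested. The fibroblast markers COL1A2, DCN and FAP were listed at 0 in all 6 libraries, and the summed levels of the fibroblast and leukocyte lists stayed between 1.99 and 4.31 CPM. Of 5 RNAs listed as nuclear-retained, MEG3 and OIP5-AS1 were lower in SIRT4 libraries by 0.77 and 0.57 on the log2 scale. NEAT1 (-1.10), MALAT1 (-0.16) and KCNQ1OT1 (-0.0007) overlapped between the groups and did not pass. Long non-coding RNA genes held 1.54% ± 0.055 of the units in the controls and 1.38% ± 0.037 with SIRT4 (SD, n = 3 each). The part of these RNAs in the results below was not tested.

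Ribonucleotide reductase converts ribonucleoside diphosphates to deoxyribonucleoside diphosphates. Its large subunit RRM1 holds the catalytic and regulatory sites, and its small subunit carries the radical that starts the reaction. RRM2 is the small subunit of dividing cells, made around S phase, and RRM2B is the p53-inducible small subunit that serves DNA repair and mitochondrial DNA. TYMS methylates dUMP to dTMP, TK1 and DCK return nucleosides to the pool by phosphorylation, DUT and DCTPP1 remove unwanted triphosphates, and SAMHD1 hydrolyses deoxynucleoside triphosphates. DCK also makes the first phosphorylation of gemcitabine, a cytidine analogue used against pancreatic cancer, and the reductase is one of that drug's targets.

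In SIRT4 libraries the 2 main subunits of ribonucleotide reductase stood apart in opposite directions. RRM2 (ENSG00000171848, GRCh38 chromosome 2, 10120698 to 10131419, plus strand) was at 186, 193 and 192 CPM in the controls and 129, 123 and 125 CPM with SIRT4. The 3 SIRT4 values lay below every control value, and the log2 fold change was -0.60 (SE 0.044), a level 34.0% lower. RRM1 (ENSG00000167325, chromosome 11, 4094707 to 4138876, plus strand) was at 84.6, 90.9 and 89.4 CPM in the controls and 124, 148 and 154 CPM with SIRT4. The SIRT4 values lay above every control value, with SIRT4 replicate 1 the lowest of them, and the log2 fold change was 0.69 (SE 0.082). RRM2B (ENSG00000048392, chromosome 8, 102204502 to 102239118, minus strand) was at 65.2, 70.8 and 72.2 CPM in the controls and 61.9, 63.4 and 62.7 CPM with SIRT4. Its groups did not overlap either, but control replicate 1 lay only just above the highest SIRT4 library and the log2 fold change of -0.15 (SE 0.06) was small.

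Because RRM2 was lower and RRM1 higher, the RRM2 to RRM1 ratio necessarily differed more than either transcript alone. The fall of RRM2 was part of how the set was chosen, so the ratios are a description. Levels of different genes were compared only per length, as CPM per kb of annotated exon. On that scale the RRM2 to RRM1 ratio was 1.73, 1.67 and 1.68 in control libraries and 0.816, 0.650 and 0.638 in SIRT4 libraries, or 1.69 ± 0.030 against 0.701 ± 0.0997 (SD, n = 3 each). RRM2 transcripts thus exceeded RRM1 transcripts in all 3 control libraries and were fewer in all 3 SIRT4 libraries. The RRM2B to RRM1 ratio was 0.592 ± 0.015 in the controls and 0.335 ± 0.035 with SIRT4. The sum of both small subunits to RRM1 was 2.28 ± 0.026 in the controls and 1.04 ± 0.13 with SIRT4, 45.4% of the control value. Within the small subunits, RRM2 made up 74.1% ± 0.69 in the controls and 67.6% ± 0.86 with SIRT4. With the longest transcript as the length, the RRM2 to RRM1 ratios were 1.86 and 0.771, so they were on the same sides of 1. These are ratios of transcripts, not of protein, and the absolute ratios depend on the lengths taken while the change between groups does not.

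**Figure D1:**
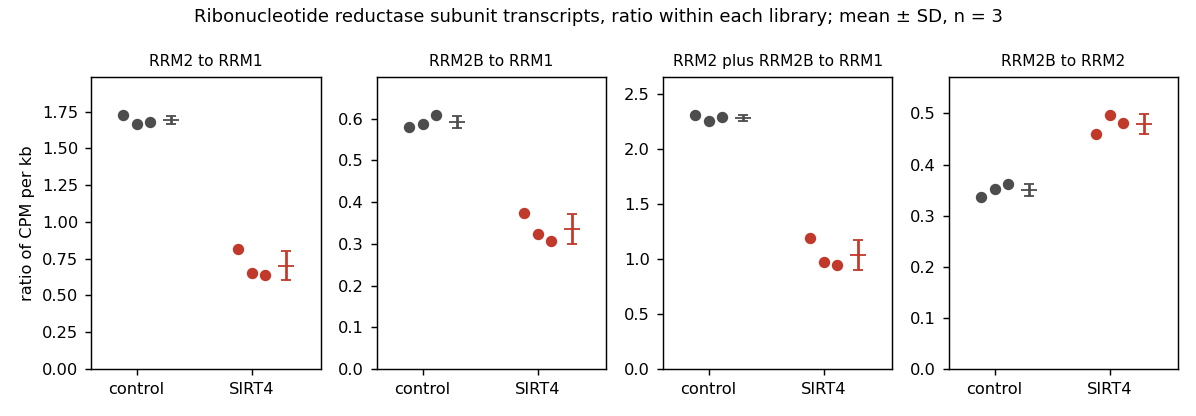
Ratios of the ribonucleotide reductase subunit transcripts within each library, on CPM per kb of exon, for 3 control and 3 SIRT4 libraries; points are libraries and bars are mean ± SD. The ratios of RRM2, of RRM2B and of their sum to RRM1 are lower in all 3 SIRT4 libraries, and the RRM2B to RRM2 ratio is higher, 0.479 ± 0.019 against 0.350 ± 0.013.

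TYMS (ENSG00000176890, chromosome 18, 657604 to 673578, plus strand) had the highest fold change of the 9. It was at 38.4, 37.3 and 43.2 CPM in the controls and 70.5, 75.6 and 78.4 CPM with SIRT4, without overlap, and the log2 fold change was 0.92 (SE 0.077). TYMS shares 967 exon bases with ENOSF1 on the opposite strand and 183 with the non-coding TYMSOS, also opposite. No strand setting is given in the sources used here, so reads in those stretches cannot be assigned to one gene. ENOSF1 was lower, with a log2 fold change of -0.38 (SE 0.080, edgeR adjusted p = 0.0159, 0.00192 to 0.0591 over 14 alternatives); its adjusted p was 0.0519 with control replicate 1 left out, 0.0591 with control replicate 3 left out and 0.0528 with SIRT4 replicate 2 left out. TYMSOS averaged 1.85 CPM in the controls and 3.14 CPM with SIRT4 (log2 fold change 0.76, SE 0.21, edgeR adjusted p = 0.0396, 0.0104 to 0.124 over 14 alternatives); it still passed with control replicate 3 left out, but with control replicate 1, control replicate 2 or any 1 SIRT4 library left out its adjusted p lay between 0.0669 and 0.124.

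The salvage kinases did not move together. TK1 (ENSG00000167900, chromosome 17, 78174075 to 78187233, minus strand), the thymidine kinase of cycling cells, was at 60.1, 49.1 and 60.9 CPM in the controls and 100.03, 90.9 and 102 CPM with SIRT4. Each SIRT4 library lay above each control library, and the log2 fold change was 0.78 (SE 0.093). DCK (ENSG00000156136, chromosome 4, 70992538 to 71030914, plus strand) was at 30.0, 32.5 and 32.5 CPM in the controls and 31.0, 32.4 and 32.5 CPM with SIRT4. The DCK groups lay on top of each other, with a log2 fold change of 0.01 (SE 0.072). The TK1 to DCK ratio per kb was 3.11 ± 0.44 in the controls and 5.30 ± 0.39 with SIRT4 (SD, n = 3 each). DCK shares 199 exon bases with MOB1B on the same strand; MOB1B did not pass (log2 fold change -0.26, edgeR adjusted p = 0.0599).

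Of the enzymes that remove triphosphates, DUT and SAMHD1 varied more between SIRT4 libraries, relative to their means, than RRM1 and RRM2 did. DCTPP1 varied more than RRM2 there but about as much as RRM1, and it varied more between control libraries than between SIRT4 libraries. DUT (ENSG00000128951, chromosome 15, 48331011 to 48343373, plus strand), which cleaves dUTP to dUMP and so also feeds TYMS, was at 55.2, 56.1 and 49.5 CPM in the controls and 60.5, 56.4 and 75.0 CPM with SIRT4. SIRT4 replicate 2 lay barely above control replicate 2, and the log2 fold change was 0.25 (SE 0.11). DCTPP1 (ENSG00000179958, chromosome 16, 30423619 to 30430075, minus strand), a pyrophosphatase of dCTP and its modified forms, was at 63.9, 78.0 and 60.3 CPM in the controls and 69.9, 71.4 and 85.0 CPM with SIRT4. Its groups overlapped, with a log2 fold change of 0.16 (SE 0.12). SAMHD1 (ENSG00000101347, chromosome 20, 36889773 to 36951901, minus strand) was at 16.6, 19.6 and 18.7 CPM in the controls and 17.8, 16.4 and 25.1 CPM with SIRT4. These groups overlapped as well, and the log2 fold change of 0.11 (SE 0.16) was -0.09 without SIRT4 replicate 3. SIRT4 replicate 3 was the highest of all 6 libraries for DUT, DCTPP1 and SAMHD1; without it the log2 fold change was 0.13 for DUT and 0.08 for DCTPP1.

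**Figure D2:**
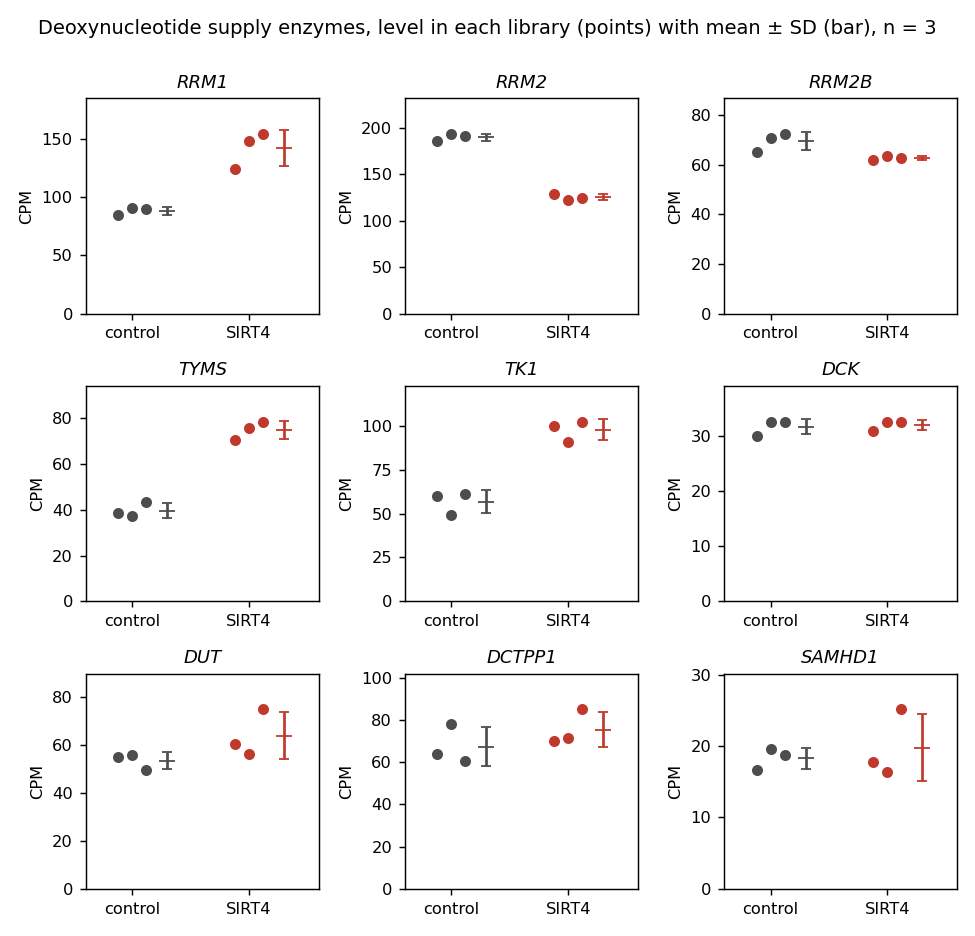
Level of each of the 9 enzymes in CPM in 3 control and 3 SIRT4 libraries, on axes that start at 0; points are libraries in the order of their replicate numbers and bars are mean ± SD. RRM1, TYMS and TK1 lie higher and RRM2 lower in every SIRT4 library, while DCK, DCTPP1 and SAMHD1 overlap between the groups.

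In the fit over all genes, 3 of the 9 enzymes passed the threshold as higher (RRM1, TYMS and TK1), 1 as lower (RRM2) and 5 did not pass, where 17.1% of all tested genes passed, 9.38% as higher and 7.67% as lower. The groups did not overlap for 6 of the 9, against 37.6% of all tested genes. Because the set was proposed from this contrast, nothing is read from these shares. The median log2 fold change was 0.16 for the 9 genes and -0.02 for all tested genes. Of all tested genes, 12.3% had a fold change lower than that of RRM2 and 3.60% had one higher than that of TYMS. Leaving out any 1 library changed which members passed in none of the 6 cases, and the log2 fold change of RRM2 then ran from -0.62 to -0.58. In bulk RNA, a changed share of cells in S phase and a changed amount of RNA per cell cannot be told apart. This holds for RRM2 and for the enzymes that were higher.

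The order of the 9 levels per kb differed between the groups. In control libraries DCTPP1 was the highest at 42.6 ± 5.9 CPM per kb, followed by RRM2 at 35.7 ± 0.71, TK1 at 30.5 ± 3.6, RRM1 at 21.1 ± 0.79, TYMS at 16.1 ± 1.3, DUT at 14.6 ± 0.98, RRM2B at 12.5 ± 0.67, DCK at 9.82 ± 0.44 and SAMHD1 at 1.63 ± 0.13 (SD, n = 3 each). TYMS and DUT overlapped there, and every other pair of neighbours in the order was separate in the 3 libraries. In SIRT4 libraries TK1 at 52.5 ± 3.2 and DCTPP1 at 47.7 ± 5.3 CPM per kb overlapped at the top, and RRM1 at 34.0 ± 3.7 overlapped with TYMS at 30.3 ± 1.6. RRM2 followed at 23.6 ± 0.63 CPM per kb, the fifth of the 9 where it had been the second. DUT, RRM2B, DCK and SAMHD1 held the last 4 places in SIRT4 libraries, at 17.4 ± 2.7, 11.3 ± 0.14, 9.91 ± 0.27 and 1.76 ± 0.42 CPM per kb. SAMHD1 transcripts were the fewest in both groups, near the middle of all tested genes with a length (percentile 41.6), while the other 8 lay at percentiles from 76.9 to 95.8. DCTPP1, DUT and SAMHD1 share 666, 533 and 1159 exon bases with ZNF771, DUT-AS1 and TLDC2 on the opposite strand. As for TYMS, reads in those stretches cannot be assigned to a single gene, which limits these levels per kb.

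**Figure D3:**
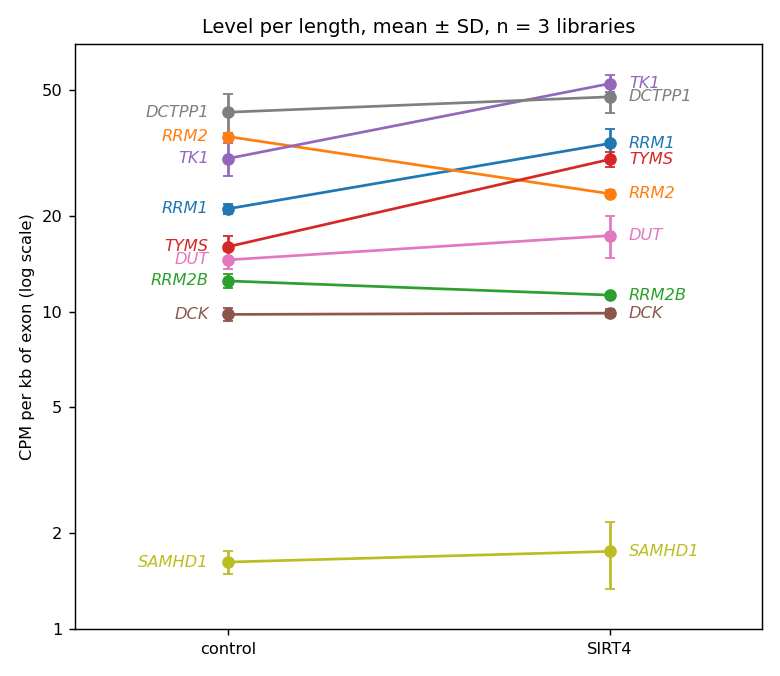
Mean level of each enzyme in CPM per kb of exon, on a log axis, in 3 control and 3 SIRT4 libraries; bars are SD and lines join the groups of 1 gene. RRM2 crosses RRM1 and TYMS between the groups, and DCK and SAMHD1 run nearly flat.

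The replication genes against which RRM2 had been noticed were higher almost throughout. Of 48 genes of the replication fork and origin licensing, 35 were higher and none lower by edgeR (9.38% and 7.67% of all genes), with a median log2 fold change of 0.57 and a range from -0.07 to 1.17. The DESeq2 Wald test also called none lower, and none was lower at an unadjusted p under 0.05. None of the 48 had a fold change as low as that of RRM2, and 9 exceeded that of TYMS. MCM6 and MCM2, subunits of the replicative helicase, were higher by 1.07 (SE 0.069) and 0.99 (SE 0.063) on the log2 scale, and the histone chaperone subunit CHAF1A by 0.97 (SE 0.067). This list was proposed with the contrast in view and is the ground on which the enzymes were chosen, so its direction is a description.

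Near TYMS in metabolism, SHMT1 was higher, as TYMS was, and DTYMK did not pass. SHMT1, which loads tetrahydrofolate with a carbon unit, rose from 13.6 CPM in the controls to 26.2 CPM (log2 change 0.95, SE 0.089, edgeR adjusted p = 0.000394). The thymidylate kinase DTYMK averaged 59.7 CPM in the controls and 68.9 CPM with SIRT4 (log2 fold change 0.21, edgeR adjusted p = 0.0677). Both belong to a list of 35 other genes of deoxynucleotide metabolism, of which 6 were higher and 6 lower, with a median log2 fold change of 0.13. Of all tested genes, 9.38% were higher and 7.67% lower. The nucleoside diphosphate kinase NME1 rose by 0.47 (SE 0.058, edgeR adjusted p = 0.00134); it has a read-through transcript with NME2, which stood at 332 and 324 CPM in the groups. Higher genes also included the purine salvage enzymes HPRT1 and APRT (0.27 each) and the nucleoside transporter SLC29A1 (0.28). Among the lower genes, uridine phosphorylase UPP1 fell from 272 to 166 CPM (log2 fold change -0.72, SE 0.045, edgeR adjusted p = 6.44e-05), adenosine deaminase ADA fell by 0.36 (SE 0.062, adjusted p = 0.0059) and mitochondrial deoxyguanosine kinase DGUOK fell by 0.41 (SE 0.071, adjusted p = 0.00603). The nucleotidases NT5C3A and NT5M fell by 0.54 and 0.42 (log2). Mitochondrial thymidine kinase, TK2, overlapped between the groups (0.31, SE 0.18).

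Ribonucleotide reductase draws its electrons from thioredoxin and glutaredoxin. Of 7 genes of these systems 1 passed, the thioredoxin reductase TXNRD1, which fell from 638 to 477 CPM (log2 fold change -0.42, SE 0.048, edgeR adjusted p = 0.00104), and the list median was 0.09. None was higher by edgeR, against 1 by DESeq2 and 2 at an unadjusted p under 0.05. Over all tested genes edgeR called 9.38% higher and 7.67% lower, the shares to set beside each list of this paragraph. Nothing is read from 1 call among 7 genes. The ribonucleotides that feed the reductase come from the de novo pathways. Of 14 purine synthesis genes 7 were higher and none lower, the latter count being 1 when every value was divided by 4, with the stricter filter or with library size only, and 0 by DESeq2, with 2 lower at an unadjusted p under 0.05; the median was 0.30. ADSL, PRPS1 and MTHFD1 rose by 0.83 (SE 0.11), 0.40 (SE 0.046) and 0.44 (SE 0.055) on the log2 scale. Of 5 pyrimidine synthesis genes none was higher by edgeR, by DESeq2 or at an unadjusted p under 0.05, and 1 was lower, the mitochondrial dehydrogenase DHODH (log2 fold change -0.41, SE 0.099, edgeR adjusted p = 0.0263, 0.00388 to 0.0929 over 14 alternatives). That call was lost with 1 library left out in 4 of 6 cases, at adjusted p = 0.0748 (control replicate 2), 0.0929 (control replicate 3), 0.0906 (SIRT4 replicate 2) and 0.0793 (SIRT4 replicate 3). CTPS1, which makes CTP, averaged 221 and 209 CPM in the groups and did not pass (edgeR adjusted p = 0.19).

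**Figure D4:**
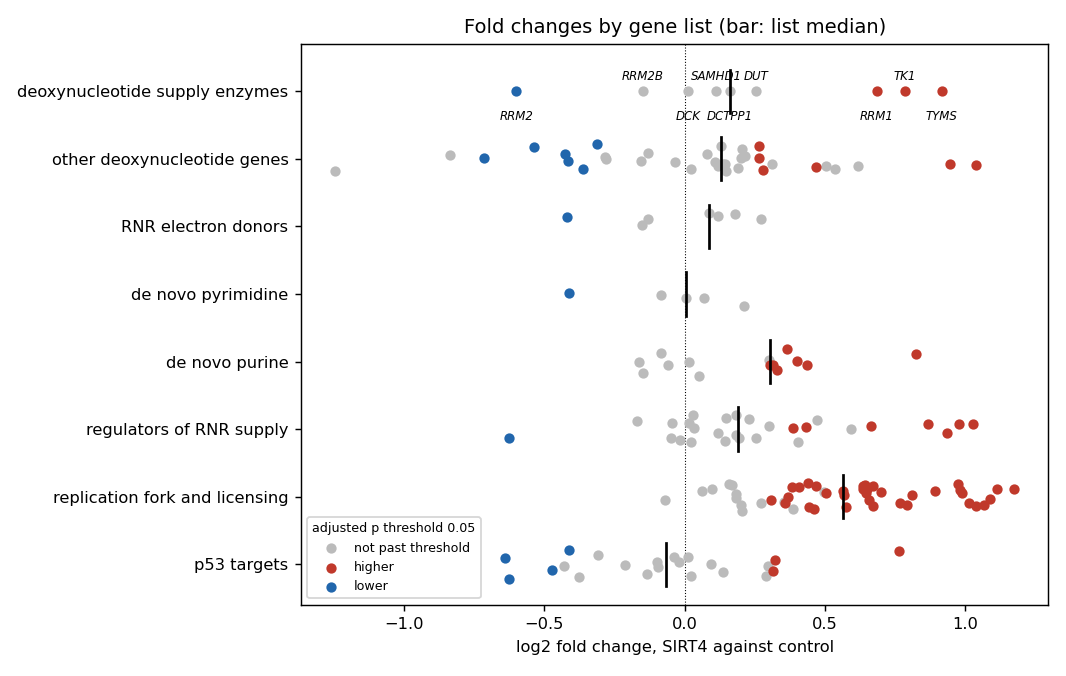
Log2 fold change of SIRT4 against control for each tested gene of 8 lists; red and blue points passed the adjusted p threshold of 0.05 in the fit over all genes, grey points did not, and black bars are list medians. RRM2 lies left of every replication gene, whose median is 0.57, and the members' median is 0.16.

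Transcription of RRM2, TYMS and TK1 in dividing cells is governed by E2F factors and their pocket-protein and B-MYB partners, and RRM2 protein is removed through cyclin F and through the FZR1 form of the anaphase-promoting complex. Of 28 such regulators 7 were higher and 1 lower (9.38% and 7.67% of all tested genes), with a median log2 fold change of 0.19. MYBL2, which encodes B-MYB, rose from 76.9 CPM in the controls to 157 CPM (log2 change 1.03, SE 0.060, edgeR adjusted p = 4.24e-05), E2F1 rose by 0.87 (SE 0.058, adjusted p = 7.83e-05) and TFDP1, the partner of E2F proteins, by 0.66 (SE 0.057, adjusted p = 0.000266). CCNF, which encodes cyclin F, rose by 0.38 (SE 0.061, edgeR adjusted p = 0.00425). The lower regulator was E2F7, a repressor of the family, which fell from 49.1 to 31.8 CPM (log2 fold change -0.63, SE 0.096, edgeR adjusted p = 0.0038). FZR1 (0.19), the checkpoint kinase CHEK1 (0.02) and its activator ATR (0.03) did not pass. RRM2B is a target of p53. Of 22 other p53 targets 3 were higher and 4 lower, with a median of -0.07. Nothing is read from these counts, which are small beside the same shares of all tested genes (9.38% and 7.67%). TNFRSF10B, SESN2 and ZMAT3 fell by 0.64, 0.63 and 0.47 (log2), TP53I3 rose by 0.76, and CDKN1A averaged 97.0 and 74.8 CPM and did not pass (edgeR adjusted p = 0.0671). TIGAR and CCNG1 were called higher (0.32 each). The number higher was 2 when control replicate 1 or SIRT4 replicate 3 was left out, and 1 when any of the other 4 libraries was, and TIGAR was lost in all 6 cases (adjusted p from 0.0507 to 0.0786). The number lower was 2 without SIRT4 replicate 2, and ZMAT3 was then at an adjusted p of 0.0503 (0.0005 to 0.0503 over 14 alternatives).

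Besides DCK, 12 genes that take up, phosphorylate, inactivate or export nucleoside analogues were listed. Of the 10 tested, SLC29A1, the equilibrative transporter that carries gemcitabine, rose by 0.28 (SE 0.049, edgeR adjusted p = 0.00691), the exporter ABCC4 rose by 0.47 (SE 0.053, adjusted p = 0.000963) and NT5C3A fell. Thus 2 of the 10 were higher and 1 lower, where 9.38% and 7.67% of all tested genes were. Nothing is read from counts this small. The number higher was 4 without control replicate 1. Cytidine deaminase, CDA, averaged 3.50 CPM in the controls and 4.97 CPM with SIRT4 and did not pass, and the concentrative transporters SLC28A1 and SLC28A3 were too low to test.

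Over the 6 libraries, the 5 genes of at least 10 CPM whose log2 CPM ran most like that of RRM2 were SLC20A1, DNAJB6, GHITM, EREG and TMC7, with Pearson correlations from 0.998 to 0.999 among 10551 genes compared. EREG, which encodes the growth factor epiregulin, was at 92.4, 100.2 and 93.4 CPM in the controls and 31.6, 28.2 and 30.3 CPM with SIRT4. The phosphate transporter SLC20A1 was at 139, 145 and 145 CPM in the controls and 104, 101 and 102 CPM with SIRT4. In each of the 5 genes the groups lay apart as they do for RRM2, and 100 genes had a correlation above 0.99, so the likeness mainly says that the groups differ. The nearest tested neighbours of RRM2 did not pass: CYS1, 39754 bases away, had a log2 fold change of -0.17 and an unnamed non-coding gene 156381 bases away one of 1.03 (edgeR adjusted p = 0.173 and 0.115). For TK1, whose neighbours SYNGR2 and AFMID lie 548 and 84 bases from it, their log2 fold changes were 0.08 and -0.03. SEPHS2, 13556 bases from DCTPP1, was lower by 0.51 and SOGA1, 26087 bases from SAMHD1, was higher by 0.31. Processed copies named after RRM2, TYMS and DUT took up at most 0.362% of the mean CPM of their parent gene.

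The start regions are shown because RRM2 moved against RRM1 and TYMS, and because E2F and CCAAT elements are the textbook promoter elements of S-phase genes. The windows run from 250 bases before to 50 after the RefSeq gene start on GRCh38.p14 and were found for 8 of the 9 enzymes. Capitals mark matches on either strand to an E2F core (the word TTCCCGC, the word TTGGCGC, the word TTCGCGC or the word TTGCCGC), to its longer form with another T in front, which contains the core, or to a CCAAT box (CCAAT).
RRM2, chr2:10122489-10122788, plus strand: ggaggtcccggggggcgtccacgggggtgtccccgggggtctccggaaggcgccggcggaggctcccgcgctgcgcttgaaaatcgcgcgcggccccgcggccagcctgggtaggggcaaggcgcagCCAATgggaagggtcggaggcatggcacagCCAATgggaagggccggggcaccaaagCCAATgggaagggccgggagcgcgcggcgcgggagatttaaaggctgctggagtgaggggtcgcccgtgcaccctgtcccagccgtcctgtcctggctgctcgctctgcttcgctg
RRM1, chr11:4094435-4094734, plus strand: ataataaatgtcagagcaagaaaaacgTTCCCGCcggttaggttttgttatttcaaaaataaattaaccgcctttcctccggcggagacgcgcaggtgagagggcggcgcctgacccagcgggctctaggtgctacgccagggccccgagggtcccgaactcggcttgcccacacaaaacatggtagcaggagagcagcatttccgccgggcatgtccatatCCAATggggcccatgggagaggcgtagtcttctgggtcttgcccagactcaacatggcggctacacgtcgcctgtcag
TYMS, chr18:657403-657702, plus strand: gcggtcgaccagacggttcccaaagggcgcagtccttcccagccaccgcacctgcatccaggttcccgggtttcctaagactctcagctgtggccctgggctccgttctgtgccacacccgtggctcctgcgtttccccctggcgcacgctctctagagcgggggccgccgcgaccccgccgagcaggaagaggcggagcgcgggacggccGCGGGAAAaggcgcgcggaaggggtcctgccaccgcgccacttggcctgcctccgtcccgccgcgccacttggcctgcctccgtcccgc

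The RRM2 window held 3 CCAAT boxes, centred 121, 91 and 64 bases before the start, and no E2F core. At least 3 CCAAT boxes occurred in 3.26% of 35116 promoters of that length, and at least 1 in 34.6%, against 24 of 41 replication genes with a window (58.5%). The RRM1 window held 1 E2F core, centred 220 bases before the start, and 1 CCAAT box 26 bases before it. The TYMS window held the longer E2F form, on the minus strand 36 bases before the start, and no CCAAT box. The TK1 window held neither. DCK, which was level between the groups, held 3 E2F cores, and SAMHD1 held 2 CCAAT boxes. The E2F core was in 3 of the 8 windows, in 30 of 41 replication genes with a window (73.2%) and in 13.0% of all promoters. Matches are letters in a fixed window, and the windows follow 1 annotated start per gene. The windows of RRM2, DCK and DCTPP1 lay wholly inside the gene spans given above. Starts further upstream were not searched, so a missing match holds for the window only.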

How the data were processed

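Per the labels' protocols, Trizol was used to extract the RNA and an NEBNext Ultra kit to make libraries. The submitters' processing notes list STAR, Subread, featureCounts, DESeq2 and the build hg38, with no role for each. The authors deposited whole-number values per gene, treated here as estimated counts because low values peaked at multiples of 4 (1278 genes at 4 and 387 at 7 in control replicate 1); how they were derived is not given. They needed no rounding. Symbols matched 60357 of 67140 identifiers, and GENCODE release 29 named 296 more and gave positions and exon lengths.

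In R 4.3.3, edgeR 4.0.16 (filterByExpr, TMM, robust quasi-likelihood fit, Benjamini-Hochberg threshold 0.05) compared all 6 libraries without covariates. CPM used TMM-scaled library sizes; SE is the log2 fold change over the root of F. Alternatives were DESeq2 1.42.0 size factors and Wald test, library size only, no filter, a stricter filter (10 counts in 3 libraries, mean 1 CPM), limma 3.58.1 voom, a replicate block, division by 4 and leaving out each library.

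The members and lists were chosen with earlier results of these data known. Named genes were the 9 enzymes, up to 3 higher and 3 lower genes per list by adjusted p, DTYMK, CTPS1, E2F1, CCNF, CHEK1, CDKN1A, SIRT4, neighbours, and the 5 genes most like RRM2; HPRT1, APRT, NT5C3A, NT5M, NME2, TK2, CDA, FZR1, ATR and SLC28A1 with SLC28A3 were added after their values were seen. NEAT1, MALAT1 and KCNQ1OT1 were also named afterwards, to complete their list. Some listed genes enter the counts and are not reported by name here.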

Additional observations from a re-analysis of the deposited data

How the results depend on the processing

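Under all 14 alternatives 3 enzymes were past the threshold as higher and 1 as lower, and the log2 fold changes of the 9 moved by less than 1 SD between replicates (log2 CPM, pooled over both groups) in 126 of 126 recalculations, the nearest being RRM2 with library size only (0.033 against an SD of 0.034). The enzymes were chosen by this contrast and the alternatives reuse the same libraries. Their stability therefore describes the processing only and is no test of the enzymes. Several list counts and the number of lower genes in all moved by more than 1.5 times. The DESeq2 Wald test called 10 other deoxynucleotide genes, 5 nucleoside analogue genes and 1 electron donor higher. Library size only, the stricter filter and division by 4 each called 1 purine gene lower. With the replicate block, no pyrimidine gene was lower (0) and 1 p53 target was higher. Leaving out 1 library gave from 978 to 1204 lower genes in all (978 without control replicate 3, 1021 without SIRT4 replicate 2, 1058 without SIRT4 replicate 3, against 1595), 0 to 1 lower pyrimidine genes, 0 to 1 higher electron donors, 1 to 2 higher and 2 to 4 lower p53 targets, and 2 to 4 higher nucleoside analogue genes. The cause was not tested. No pairing by replicate number was visible. Deviations of same-numbered libraries correlated at 0.00647, 0.0354 and -0.0291 across genes, and the block gave 1450 higher and 1140 lower genes. Whether same-numbered libraries were prepared together is not stated in the labels, and these correlations cannot show it. Over 48 other named genes, 639 of 672 recalculations kept the side of the threshold, 29 lost it, 4 gained it and 0 reversed.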
